A study of Arabidopsis thaliana with 39 samples.

Results

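The genes described here are 51 Arabidopsis genes for coiled-coil type NLR immune receptors, of 37184 genes counted in each small RNA library. They were taken from a fixed list of gene identifiers, which includes 6 genes named as targets of the microRNA miR472 (AT1G51480, AT5G43730, AT5G43740, AT1G12290, AT5G63020 and AT1G63360). The reference annotation (RefSeq, TAIR10.1) names 25 of the 51 products as CC-NBS-LRR proteins and most others only as NB-ARC or LRR disease resistance proteins. The study sequenced small RNAs from 10 mutants in RNA processing and decay to find genes that gain or lose small RNAs when these steps fail.

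All plants were Arabidopsis thaliana grown under long days, with Col-0 as wild type, and RNA came from the total plant, with 3 libraries in each of 13 groups. Set 1 held 14 day-old seedlings grown on MS medium: wild type Col-0 (1), lsm1a lsm1b (both genes of the LSM1 subunit of the cytoplasmic LSM complex, which activates decapping), ncb-4 (coilin, the scaffold of Cajal bodies), upf1-5 and upf3-1 (nonsense-mediated decay). Set 2 held seedlings of the same age on the same medium: Col-0 (2), ahg2-1 (the poly(A) ribonuclease PARN), ccr4a (a deadenylase), pab2 pab4 (poly(A)-binding proteins), fy-2 (a subunit of the cleavage and polyadenylation machinery) and rsr1-2 (a knock-out of the CSTF64 paralog ESP1/RSR1). Set 3 held 21 day-old plants on soil: Col-0 (3) and cstf64-2, in which the 3' end processing factor CSTF64 is disrupted and whose homozygous plants had to be picked by their appearance. The mutant lines fy-2 and upf1-5 are known as partial loss-of-function alleles. Every mutant was set against the wild type of its own set, so the mutants of a set share control libraries. Per the paper, Col-0 (3) was grown alongside cstf64-2, but its small RNA data had been submitted earlier.

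NLR receptors sit inside plant cells and trigger immunity when they sense pathogen effectors, often by watching over a host protein that the effector alters. The coiled-coil class has an N-terminal coiled coil, a nucleotide-binding domain and leucine-rich repeats, and its RPW8-like branch serves as helpers for other receptors. Receptor levels are costly to the plant, and in Arabidopsis miR472 guides cleavage of a group of their mRNAs within the stretch that encodes the nucleotide-binding loop, after which RDR6 and DCL4 turn the cleaved transcript into secondary, phased siRNAs.

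The pairing of members with miR472 was read from the reference genome, because it is a feature that the counts were not used for. Mature miR472 (22 nucleotides, minus strand of TAIR10.1 chromosome 1, 4182143 to 4182164) is printed with its seed, bases 2 to 8, in capitals. The sites below it are the best match in each gene, with the bases that form Watson-Crick pairs with miR472 in capitals. They were chosen because they contrast the named targets, further members with a site, and genes without a predicted site.
miR472: uUUUUCCUacuccgcccauacc
AT5G43740 and AT1G51480: GGTATGGGgGGAGTAGGAAAAA
AT5G43730: GGTATGGGgGGAaTAGGAAAAA
AT1G12290: GGcATGGGtGGAGTAGGAAAAA
AT5G63020: GGTATGGGtGGAGTAGGtAAAA
AT1G63360 and AT1G62630: GGTATGGGCGGtGTAGGgAAgA
AT5G47260: GGTAgGGGtGGAGTAGGcAAAA
AT1G61190: GGTATGGGtGGtGTAGGcAAAA
RPP8 (AT5G43470) and AT5G48620: GGgATGGGCGGtaTtGGtAAAA

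Each site was scored with 1 point for a mismatch and 0.5 for a G-U pair, doubled at positions 2 to 13 of miR472, and a total of at most 4 was called a predicted site. By this rule 15 of the 51 members (29.4%) held a predicted site, against 16 of 27444 protein-coding genes in all (0.0583%). The 6 named targets are among the 15 and were listed as such, so this share follows in part from how the list was made. The other gene was AT3G30842, annotated as pleiotropic drug resistance 10. The 6 named targets scored between 1 and 4, with AT5G43740 and AT1G51480 at 1 and AT1G63360 at 4. The further predicted members included AT1G12280 (SUMM2, which guards a MAP kinase cascade), RFL1, AT1G15890, AT1G62630, AT4G10780, AT4G27190, AT5G05400 and AT5G47260, with scores from 2.5 to 4. AT1G61180, AT1G61190, AT1G61300 and AT1G61310 scored 4.5 and lay just outside the limit. RPP8 and AT5G48620 scored 9, with 5 mismatches each. A match of letters is a description and shows neither cleavage nor regulation.

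Genes of this family share sequence, and this limits what a count can say about 1 of them. AT1G58807 and AT1G59124 shared all 21-nucleotide words of their exons and had identical counts in every library of sets 1 and 2, but not in set 3. AT1G58848 and AT1G59218 shared 92.5% and 89.4% of their words, RPP8 and AT5G48620 39.4% and 36.9%, AT1G62630 and AT1G63360 38.6% and 34.8%, and AT5G43730 and AT5G43740 17.3% and 22.6%. Values of these pairs are therefore partly the same reads counted at both places in sets 1 and 2. By contrast, every 21-nucleotide word of AT5G63020 occurs at a single place in the genome.

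Reads were counted within exons, and reads of all lengths from 15 nucleotides up were pooled by gene, so siRNAs and fragments of mRNA could not be told apart. Total counts on genes were between 6437260 and 7968503 per library in set 1, between 7767365 and 9151932 in set 2 and between 2015212 and 2323991 in set 3. The members drew few of them, between 0.0140% and 0.0398% of gene counts in sets 1 and 2 and between 0.1003% and 0.152% in set 3. In pab2 pab4 the count of PAB2 itself was 4, 9 and 5, against 86, 87 and 96 in Col-0 (2), but PAB4 had 11, 4 and 22 against 18, 30 and 21, which overlap. UPF1 had 30, 20 and 28 counts in upf1-5 against 27, 17 and 20, and FY had more in fy-2, 56, 31 and 23 against 1, 2 and 3. Small RNA counts of the other mutated genes looked up were at most 8 in the mutant and its control, too low to check a label. Since whole plants were used, fewer cells of a type and less RNA per cell cannot be told apart.

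In wild type, small RNAs came from a handful of the receptor genes. Levels were compared between genes as counts per 1000000 after normalisation (RPM) and per kb of exon, on the scale of each set. In Col-0 (1) the highest was AT5G43740 at 15.8 ± 1.5 (SD, n = 3), followed by AT1G12290 at 15.2 ± 1.21. These neighbours overlapped between libraries, whereas AT5G47260 at 8.52 ± 1.13, AT5G43730 at 4.36 ± 0.833 and the helper receptor ADR1-L1 at 3.12 ± 0.200 were each lower than the one before in all 3 libraries. The 5 genes together held 68.2% of the counts of all members. The median member was at 0.397 RPM per kb, against 0.161 for 27444 protein-coding genes.

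AT5G43740, AT1G12290, AT5G43730 and AT5G47260 led in the other wild types as well. In Col-0 (2) AT5G43740 was at 20.6 ± 0.478 RPM per kb (n = 3), AT1G12290 at 7.70 ± 0.643, AT5G43730 at 5.99 ± 0.470, AT5G47260 at 4.44 ± 0.294 and ADR1-L1 at 1.83 ± 0.167, with no overlap between neighbours, and these held 69.5% of member counts. In Col-0 (3) AT5G43740 was at 120.0 ± 16.8, AT1G12290 at 103 ± 16.5 and AT5G47260 at 83.6 ± 8.43, which overlapped between neighbours, followed by AT5G43730 at 16.1 ± 3.23 and AT5G63020 at 13 ± 2.92, which also overlapped, and the 5 held 83.2%. Set 3 differed from the others in age and medium, and each set was normalised on its own. Among genes with at least 100 counts in a set, none of set 3 had the same counts as another, against 186 and 187 genes in sets 1 and 2, and lines without a gene held 76.2% to 79.7% of the total of a file, against 59.5% to 64.1%. Reads with several places may thus have been counted differently, which was not tested, and levels are given side by side and were not compared. The 6 named targets held 56.4%, 63.7% and 67.7% of member counts in Col-0 (1), (2) and (3), and the 15 genes with a predicted site 67.8%, 71.4% and 88.4%.

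**Figure D1:**
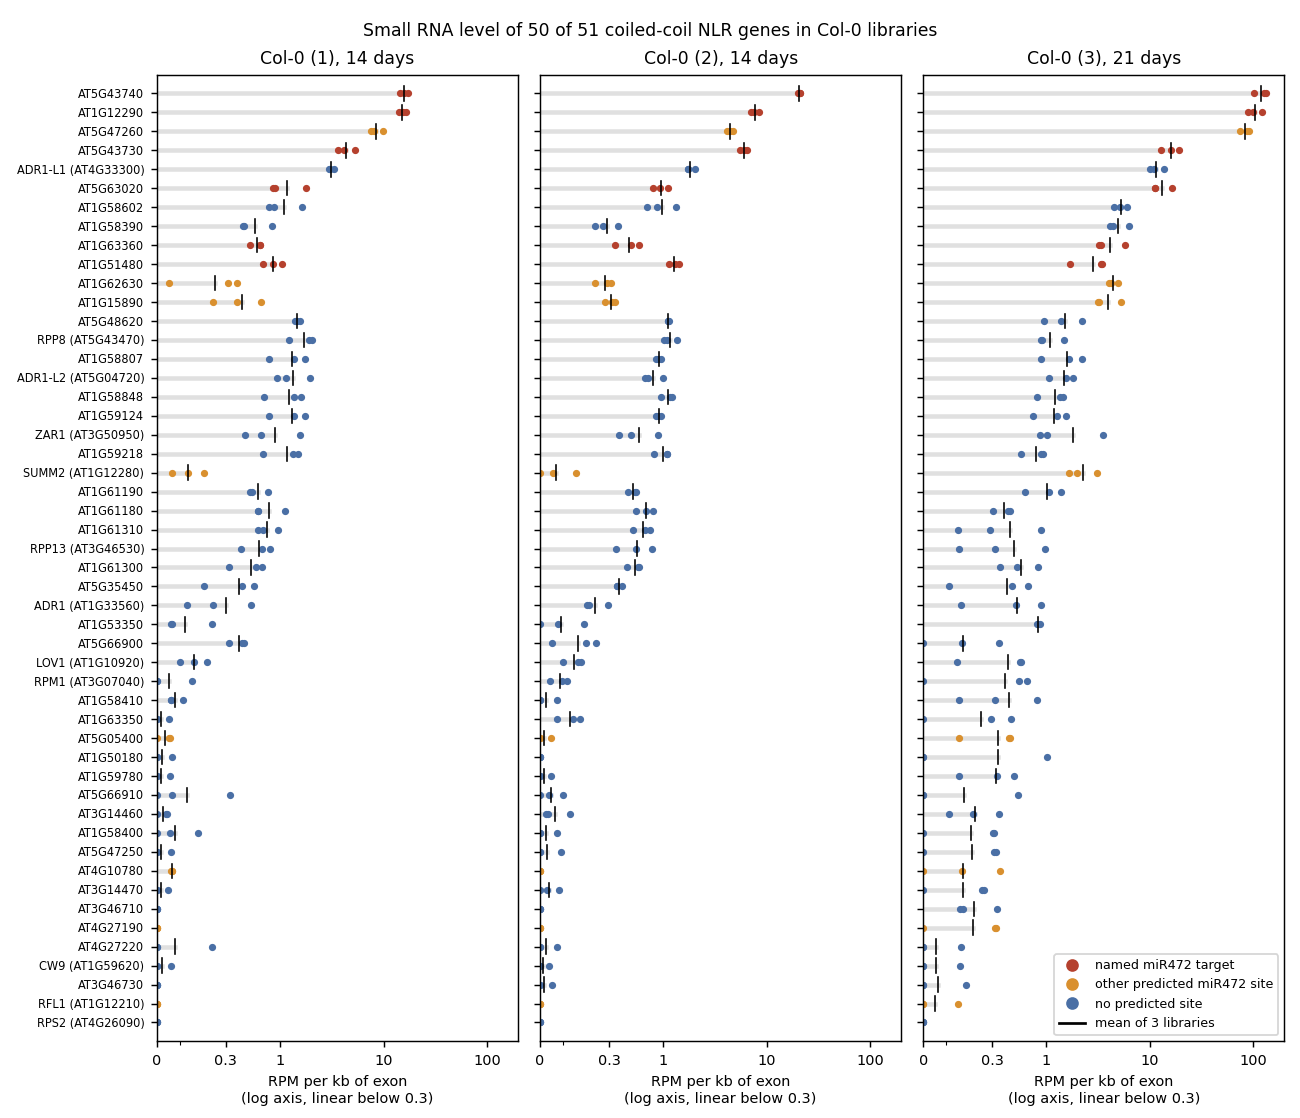
Small RNA level of 50 of the 51 receptor genes (vertical axis) in the 3 wild-type groups, in RPM per kb of exon on a log axis that is linear below 0.3; points are libraries, black ticks and grey bars the mean of 3. AT5G43740, AT1G12290, AT5G47260 and AT5G43730 stood highest in each group, and most members lay below 1 RPM per kb.

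Not all well-known receptors were among them. RPM1, which guards RIN4, had 0, 0 and 3 counts in Col-0 (1), 1, 3 and 3 in Col-0 (2) and 5, 4 and 0 in Col-0 (3). RPS2, also a guard of RIN4, had 0 counts in all 39 libraries. All of its exon bases lie under exons of genes on the other strand, and of 345 protein-coding genes placed like this 341 had no counts, against 528 of 20771 with no such overlap, so its 0 says nothing of its small RNAs. The same holds in part for RFL1, with 89.3% of its exon bases covered and 5 counts in all libraries together. Among the members, 6 had at most 3 counts in every library, 22 were too low to be tested in any comparison, and 16 were tested in all 10.

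Reads at AT1G12290 need a separate remark, because the MIR472 gene itself lies in it. The hairpin (168 bases, TAIR10.1 chromosome 1, 4182132 to 4182299) falls wholly within exons of 1 of the 4 annotated transcripts of AT1G12290, on the same strand. No separate count of the MIR472 locus was used here, so the share of AT1G12290 reads that is miR472 was not tested.

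The comparison of lsm1a lsm1b with Col-0 (1) asked whether loss of decapping activation changes small RNAs from these genes. From the same libraries, the paper already reports a modest siRNA rise over several miRNA targets in this mutant, and more miR472. A rise of named miR472 targets is thus not an independent finding. Small RNAs from 5 of the 6 named miR472 targets were raised, as were those from AT1G62630, while RPP8 and its relative AT5G48620 lost them. By adjusted p under 0.05 these were 6 members up, against 6.92% of 9558 genes, and 2 down, against 10.3%. AT1G62630 is among the 6, but was tested only through the mutant and could enter only as higher. The strongest rise was that of AT5G63020, with 195, 183 and 186 counts against 14, 14 and 28 in Col-0 (1). Every mutant library was far above every wild-type library. Its normalised level was 22.2 ± 1.81 RPM against 3.49 ± 1.55 (SD, n = 3), a log2 fold change of 2.66 ± 0.24 (SE, edgeR quasi-likelihood test, Benjamini-Hochberg adjusted p = 5.09e-06). AT5G63020 is a receptor of unknown specificity.

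The gene pair AT1G62630 and AT1G63360 followed. AT1G62630 had 29, 25 and 21 counts against 6, 7 and 1, with a log2 fold change of 1.73 ± 0.48 (adjusted p = 0.0210). A gene was tested where at least 3 of the 6 libraries reached 10 counts, scaled to the median library. AT1G62630 had 0 of the 3 control libraries at that limit and was tested only through the mutant, so it could enter only as higher, and its fold change is a description. AT1G63360 had 42, 40 and 52 counts against 11, 13 and 13, with a log2 fold change of 1.17 ± 0.29 (adjusted p = 0.0109). Mutant and wild-type libraries did not overlap for either gene. The call of AT1G62630 was lost without Col-0 (1) replicate 3 (adjusted p = 0.0859) or lsm1a lsm1b replicate 1 (0.0534), and that of AT1G63360 without Col-0 (1) replicate 1 (0.0515).

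AT1G51480 had 54, 52 and 44 counts against 13, 15 and 10, all mutant libraries above all controls, and a log2 fold change of 1.31 ± 0.29 (adjusted p = 0.00631). The neighbours AT5G43730 and AT5G43740, which lie in tandem on chromosome 5, rose by less. AT5G43730 had 320, 267 and 288 counts against 86, 93 and 119 (log2 fold change 0.88 ± 0.16, adjusted p = 0.00169). AT5G43740, the highest member per kb, had 801, 658 and 681 against 263, 269 and 303 (0.68 ± 0.15, adjusted p = 0.00488). Groups did not overlap for either gene, but both changes were under the limit of 1 on the log2 scale. The sixth target, AT1G12290, had 567, 451 and 587 counts against 364, 319 and 296, which after normalisation was 62.8 ± 2.82 against 60.7 ± 4.84 RPM, with overlapping groups and a log2 fold change of 0.04 ± 0.14 (adjusted p = 0.884).

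RPP8, which confers resistance to downy mildew in other accessions, had 16, 22 and 33 counts against 27, 39 and 43 in Col-0 (1), or 2.79 ± 0.938 against 6.80 ± 1.72 RPM, without overlap. Its log2 fold change was -1.29 ± 0.31 (adjusted p = 0.00926). AT5G48620 had 21, 16 and 28 against 36, 32 and 31, also without overlap (-1.28 ± 0.28, adjusted p = 0.00475). These 2 genes share sequence, and their falls are not independent. Both falls depended on the scaling: with libraries scaled to sequenced reads or to total gene counts, without TMM factors, they shrank to between -0.60 and -0.45 and missed the threshold, while the named targets stayed positive.

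In all, 25 members were tested in lsm1a lsm1b. Of these 4, with AT1G62630 among them, were called up (adjusted p under 0.05 and log2 fold change over 1), where 2.20% of all genes were, and 2 were called down, where 5.46% were. DESeq2 called 3 up, all of them named targets, and 2 down. The 6 named targets had a median log2 fold change of 1.03, and the 9 tested genes with a predicted site, AT1G62630 among them, 0.88. The 10 tested relatives of RPP7, RPP8 and RPP13 had a median of -0.66, and all genes -0.03. Dropping the TMM factors moved the median of all genes from -0.03 to 0.66 or 0.79, and the calls over all genes from 210 up and 522 down to 2476 up and 43 down or 3352 up and 29 down. The 6 named targets stayed above the median gene under each scaling, and 9 of the 10 RPP relatives below it. AT1G58807 and AT1G59124, both among the 10, had identical counts, and other pairs of them share sequence. The 10 are thus fewer than 10 separate measurements. The tested relatives had a similar median in ncb-4, at -0.65 against the same Col-0 (1) libraries, and in ahg2-1, at -0.67. It was -0.14 in upf1-5, -0.03 in upf3-1, -0.11 in ccr4a, -0.16 in pab2 pab4, -0.20 in fy-2, -0.43 in rsr1-2 and 0.55 in cstf64-2. A lowered median of these relatives was therefore not particular to lsm1a lsm1b. With the Col-0 of set 2 as control, 3 of the 5 raised targets lost the rise, AT1G51480 at 0.35 (adjusted p = 0.279), AT5G43730 at 0.057 (0.779) and AT5G43740 at -0.057 (0.779), whereas AT1G12290 moved to 0.66 (0.00240).

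**Figure D2:**
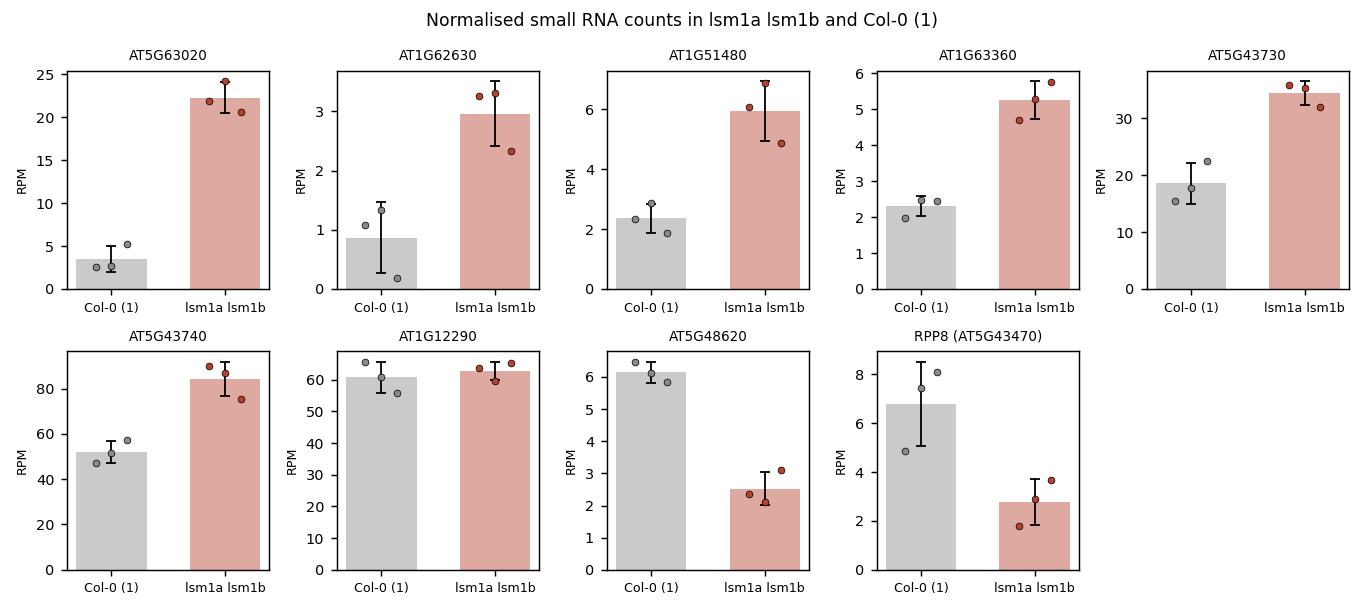
Normalised small RNA counts (RPM, vertical axes from 0) of the 6 named miR472 targets and the other members past adjusted p = 0.05 in lsm1a lsm1b; points are the 3 libraries of a group, bars the mean, error bars the SD. Mutant libraries lay above all wild-type libraries for AT5G63020, AT1G62630, AT1G51480, AT1G63360, AT5G43730 and AT5G43740, below them for AT5G48620 and RPP8, and among them for AT1G12290.

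As a share of all member counts, the 6 named targets took between 69.0% and 72.0% in lsm1a lsm1b against 53.4% to 61.3% in Col-0 (1), a ratio within each library that no scaling can move. The sum over all members was 295 to 318 RPM against 236 to 253. The TIR-type receptors, the other large NLR class, were read for comparison. In lsm1a lsm1b 1 of 15 tested, AT5G38850, was called up (2.20% of all genes), with 1912, 1456 and 1709 counts against 357, 391 and 388 (log2 fold change 1.48 ± 0.15, adjusted p = 1.34e-05).

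The other mutants of set 1 gave smaller changes. In upf1-5, 24 members were tested, 0 were called up (1.56% of all genes) and 1 down (3.73%). This was RPP8, with 21, 23 and 23 counts against 27, 39 and 43, or 3.14 ± 0.235 against 6.80 ± 1.72 RPM without overlap, and a log2 fold change of -1.10 ± 0.28 (adjusted p = 0.0111). The call was lost without Col-0 (1) replicate 2 (adjusted p = 0.0572) or 3 (0.0550), without upf1-5 replicate 1 (0.0503) and with DESeq2 (0.0532), and the change shrank to -0.68 (0.0789) or -0.60 (0.108) without TMM factors. By adjusted p without the size limit the counts were the same, 0 up (6.07%) and 1 down (6.36%). At an unadjusted p under 0.05, 1 member was higher in upf1-5 and 2 lower, and DESeq2 called 0. The share of all genes at that unadjusted limit is not given. Such counts, here and below, are therefore not read as a result about the members.

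In upf3-1, 0 of 24 members tested were called in either direction, where 4.39% of genes were called up and 7.76% down. At adjusted p alone 1 member was up (12.2% of all genes) and 2 were down (14.0%), the same numbers as at an unadjusted p under 0.05, and DESeq2 called 0. AT1G58602, known as RPP7 and like RPP8 a downy mildew resistance gene, rose, with 83, 83 and 86 counts against 49, 22 and 25 (0.82 ± 0.25, adjusted p = 0.0145), without overlap. Its rise was at 0.62 (adjusted p = 0.102) without Col-0 (1) replicate 2 and 0.67 (0.0733) without replicate 3. RPP8 fell, with 27, 25 and 31 counts against 27, 39 and 43 (-0.97 ± 0.27, adjusted p = 0.00853), and AT5G48620 fell with it (-0.70 ± 0.26, adjusted p = 0.0478). After normalisation the libraries of both did not overlap, though the raw counts did. Without TMM factors the change of RPP8 was -0.37 or -0.30 and that of AT5G48620 -0.10 or -0.03, and neither passed, nor did they with DESeq2 (adjusted p = 0.0902 and 0.295). AT5G48620 was also lost whichever library was left out. RPP8 in lsm1a lsm1b, upf1-5 and upf3-1 was measured against the same 3 control libraries, so the falls are not separate observations of the control.

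In ncb-4, 0 of 24 members tested were called up (3.35% of all genes) or down (7.27%), and DESeq2 called 0. At an unadjusted p under 0.05, 1 was higher and 7 were lower, without a share of all genes to set beside them. Without the size limit 0 were up (9.62%) and 5 down (12.1%). These were AT1G12290, with 306, 415 and 327 counts against 364, 319 and 296 (-0.41 ± 0.14, adjusted p = 0.0355), and the RPP7 relatives AT1G58807, AT1G59124, AT1G58848 and AT1G59218 at -0.93 to -0.96 (adjusted p between 0.0381 and 0.0437). AT1G58807 had 21, 20 and 23 counts against 40, 29 and 17, and for all 4 relatives the groups overlapped, through Col-0 (1) replicate 3. The first pair shares all its 21-nucleotide words and the second pair most of them, so these are about 2 measurements. With DESeq2 (adjusted p from 0.234 to 0.250) and without TMM none of the 5 passed, and each lost its place in at least 4 of the 6 refits without 1 library. The value of AT1G12290 turned to 0.14 or 0.25 without TMM factors, while the 4 relatives stayed between -0.41 and -0.27.

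In pab2 pab4 of set 2, small RNAs from 4 of the 6 named targets were lowered. Among them were the 3 members with the highest level per kb in Col-0 (2), while AT5G47260, the next highest, was raised. By adjusted p under 0.05, 5 members were down, with AT5G35450 among them, against 10.6% of all genes. By the same limit 1 was up, against 8.31%. AT5G43740 had 321, 304 and 317 counts against 436, 474 and 554 in Col-0 (2), or 31.8 ± 3.41 against 67.5 ± 1.57 RPM. All mutant libraries lay below all wild-type libraries, and the log2 fold change was -1.12 ± 0.15 (adjusted p = 2.14e-05). AT5G43730 had 118, 131 and 126 counts against 165, 189 and 197, with a log2 fold change of -1.04 ± 0.16 (adjusted p = 0.000113) and no overlap. It was at -0.98 without Col-0 (2) replicate 2 and at -0.91 without pab2 pab4 replicate 1, under the limit of 1.

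AT1G12290 fell from 30.7 ± 2.56 to 17.8 ± 2.81 RPM, with 183, 199 and 147 counts against 181, 210 and 282 (-0.82 ± 0.15, adjusted p = 0.000914). AT1G51480 fell as well, with 19, 23 and 17 counts against 20, 25 and 33 (-0.88 ± 0.29, adjusted p = 0.0392). For both, raw counts overlapped and normalised levels did not. AT5G63020 was at -0.82 and AT1G63360 at -0.44, and neither passed the test. AT5G35450, an RPP8 relative with 3, 9 and 7 counts against 10, 11 and 15, was called down (-1.38 ± 0.46, adjusted p = 0.0401). That call was lost whichever library was left out (adjusted p from 0.0526 to 0.232). AT5G35450 had 0 of the 3 pab2 pab4 libraries at the limit for testing and was tested only through Col-0 (2). It could thus enter only as lower, and its fold change is a description.

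AT5G47260, which has a predicted site, moved the other way, with 227, 157 and 157 counts against 80, 82 and 114. Its level was 18.0 ± 1.77 against 12.6 ± 0.837 RPM without overlap, a log2 fold change of 0.47 ± 0.15 (adjusted p = 0.0337). It and AT1G51480 each missed the threshold in 5 of 6 refits without 1 library, up to 0.150 and 0.152 without pab2 pab4 replicate 1, and AT1G12290 and AT1G51480 did so without TMM factors (sequenced reads, 0.207 and 0.323).

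Of 24 members tested in pab2 pab4, 0 were called up (1.71% of all genes) and 3, with AT5G35450 among them, down (4.47%). At an unadjusted p under 0.05, 2 were higher and 6 lower, without a share of all genes beside them. DESeq2 called 0 up and 1 down. The 6 named targets had a median of -0.85 and the 11 tested RPP relatives -0.16, against -0.05 for all genes. Some of these relatives share reads, so they are fewer than 11 separate measurements. Dropping TMM moved the median of all genes to 0.39 and the calls over all genes from 167 up and 435 down to 1062 up and 94 down or 1052 up and 95 down. The named targets then had a median of -0.42 and stayed negative in 6 of 6, but 0 members were called down. With Col-0 (1) as control AT5G43740 was at -0.39 (adjusted p = 0.0750), AT5G43730 at -0.23 (0.414), AT1G51480 at 0.07 (0.925) and AT5G47260 at -0.11 (0.682). The named targets took 43.0% to 49.6% of member counts in pab2 pab4 against 63.4% to 64.3% in Col-0 (2), without overlap.

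In ahg2-1 the change lay in the RPP7 relatives. AT1G58848 had 15, 6 and 10 counts against 26, 36 and 42, or 1.22 ± 0.445 against 4.75 ± 0.599 RPM. AT1G59218, which shares most of its sequence, had 15, 6 and 5 against 23, 33 and 41. Groups were well apart for both, with log2 fold changes of -1.95 ± 0.33 (adjusted p = 0.000336) and -2.10 ± 0.37 (adjusted p = 0.000539), and both kept the call in each of the 6 refits without 1 library. Both had only 1 of the 3 ahg2-1 libraries at the limit for testing and all 3 of Col-0 (2). They were thus tested only through the wild type, where they are higher, and their fold changes are a description. AT1G58807 and AT1G59124, 1 measurement in set 2, had 20, 11 and 19 counts against 25, 24 and 31 (-0.90 ± 0.30, adjusted p = 0.0409). AT1G12290 was lower by a smaller step (-0.49 ± 0.16, adjusted p = 0.0348). Neither passed without TMM factors (sequenced reads, adjusted p = 0.185 and 0.530) or with DESeq2 (0.226 and 0.159), and with 1 library left out they reached 0.112 and 0.129, both without ahg2-1 replicate 2.

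Of 24 members tested in ahg2-1, 0 were called up (3.55% of all genes) and 2, both tested only through Col-0 (2), down (5.27%). Without the size limit 0 were up (10.1%) and 5 down (8.85%). At an unadjusted p under 0.05 the counts were 0 and 7, without a share of all genes beside them. DESeq2 called the same numbers, 0 and 2. The median was -0.40 over the members tested and -0.03 over all genes. With TMM factors 19 of 24 were negative, where 47.6% of all genes were positive, and 16 of 24 without them. Some of the 24 share reads, so they are fewer than 24 separate measurements.

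The remaining mutants of set 2 changed few members. In rsr1-2, 0 of 23 were called up (0.895%) or down (1.55%), and DESeq2 called 0. At an unadjusted p under 0.05, 0 were higher and 5 lower, without a share of all genes beside them. Without the size limit 0 were up (4.66%) and 1 was down (4.34%), AT5G43730 with 161, 214 and 155 counts against 165, 189 and 197 (-0.48 ± 0.15, adjusted p = 0.0454), which DESeq2 (0.148), the scalings without TMM and 5 of 6 refits without 1 library did not keep. The median over members in rsr1-2 was -0.36, against -0.07 over all genes. With TMM factors 21 of 23 were negative, where 44.5% of all genes were positive, but 11 of 23 without them. Some of the 23 share reads. In ccr4a, 0 of 23 were called up (0.462%) or down (0.154%), and 0 by adjusted p alone (0.626% and 0.41% of all genes), with 0 higher and 2 lower at an unadjusted p under 0.05. In fy-2, 0 of 23 were called up (0.493%) or down (0.703%), and 0 by adjusted p alone (2.22% and 1.9% of all genes), with 0 at an unadjusted p under 0.05 in either direction. DESeq2 called 0 in both mutants, where few genes of any kind were called.

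Summed over all members, normalised levels were 202 to 211 RPM in Col-0 (2), 147 to 180 in ahg2-1, 167 to 193 in ccr4a, 138 to 156 in pab2 pab4, 185 to 191 in fy-2 and 172 to 175 in rsr1-2. Each mutant lay below the 3 libraries of Col-0 (2), which all 5 share. As a share of all gene counts the order was lost, with 0.0158% to 0.0199% in Col-0 (2) and 0.0140% to 0.0209% over the mutants.

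**Figure D3:**
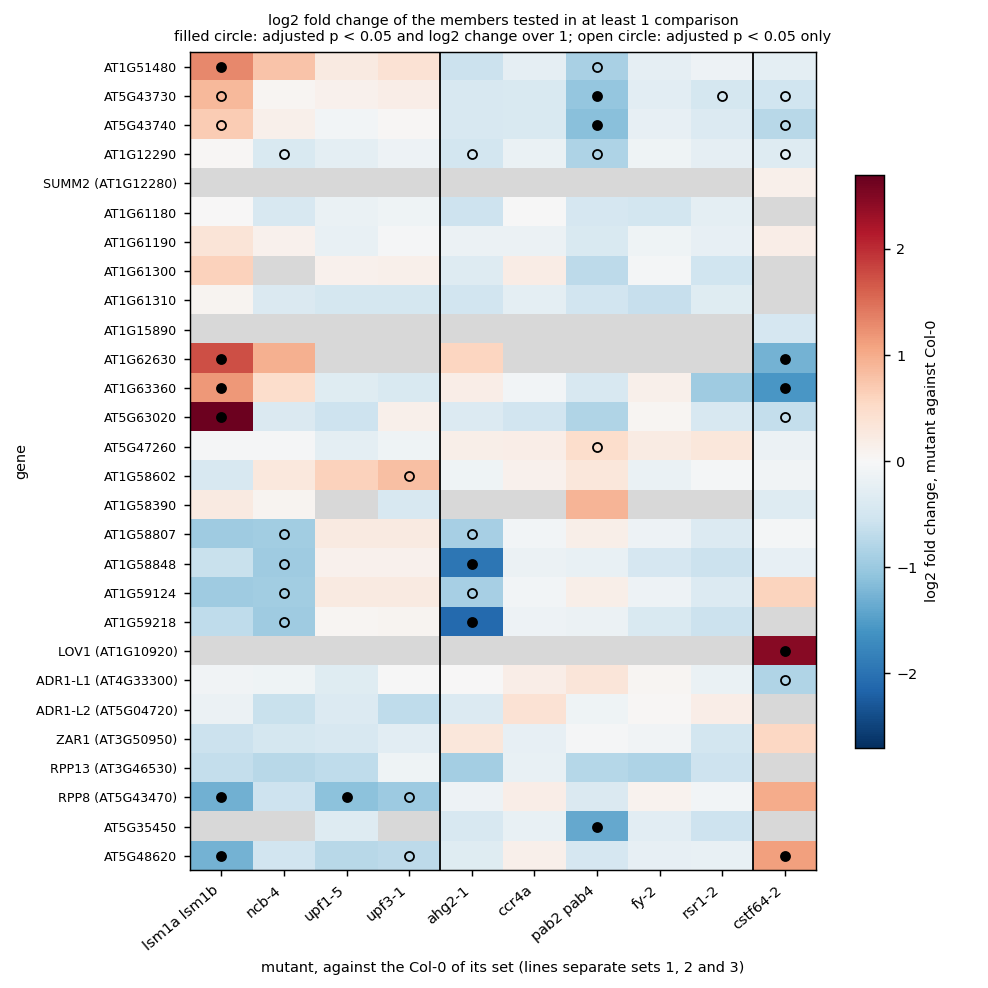
Log2 fold change (colour) of 28 of the 29 members tested in at least 1 comparison (vertical axis) in the 10 mutants (horizontal axis), each against the Col-0 of its set; grey means too few counts, filled circles adjusted p under 0.05 and a change over 1, open circles adjusted p under 0.05 only. Of the 6 named targets 5 were raised in lsm1a lsm1b, 4 were lowered in pab2 pab4 and 5 in cstf64-2, and RPP7 relatives were lowered in ahg2-1.

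In 21 day-old cstf64-2 plants, small RNAs from 5 of the 6 named miR472 targets and AT1G62630 were reduced. By adjusted p under 0.05, 8 of 22 members tested were down, against 16.5% of all genes, and 2 were up, against 18.7%. AT1G63360 had 13, 14 and 10 counts against 45, 26 and 24 in Col-0 (3), or 5.27 ± 0.767 against 15.8 ± 5.30 RPM (log2 fold change -1.58 ± 0.33, adjusted p = 0.00327). AT1G62630, which shares part of its sequence with AT1G63360, had 15, 16 and 13 against 35, 28 and 28 (-1.27 ± 0.27, adjusted p = 0.00358). Mutant libraries lay below all controls for both.

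The abundant members fell by less. AT5G43740 had 537, 610 and 502 counts against 891, 828 and 639, without overlap (-0.74 ± 0.11, adjusted p = 0.000416). AT5G63020 had 61, 60 and 52 against 100, 67 and 65 (-0.65 ± 0.18, adjusted p = 0.0158), AT5G43730 97, 129 and 103 against 168, 137 and 105 (-0.54 ± 0.17, adjusted p = 0.0258), and AT1G12290 821, 734 and 711 against 993, 784 and 687 (-0.35 ± 0.11, adjusted p = 0.0265). Only AT5G43730 among these 4 had overlapping groups after normalisation. Scaled to sequenced reads, AT5G63020 was at -0.41 (adjusted p = 0.115), AT5G43730 at -0.31 (0.185) and AT1G12290 at -0.11 (0.512), and none passed with total counts either. DESeq2 gave AT5G43730 and AT5G63020 adjusted p of 0.0563 and 0.0569. Each also lost adjusted p under 0.05 in refits, reaching 0.0742 for AT5G63020 and 0.107 for AT1G12290 without Col-0 (3) replicate 1, and 0.107 for AT5G43730 without cstf64-2 replicate 1. ADR1-L1, a helper that acts with EDS1 and PAD4, had 53, 60 and 79 counts against 86, 92 and 110, also without overlap (-0.81 ± 0.19, adjusted p = 0.00647).

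The 2 members up were LOV1 and AT5G48620. LOV1, which confers sensitivity to the fungal toxin victorin, had 26, 19 and 15 counts against 4, 4 and 1, or 8.504 ± 2.01 against 1.49 ± 0.845 RPM, with a log2 fold change of 2.46 ± 0.47 (adjusted p = 0.00194). It too had 0 of 3 control libraries at the limit for testing and could enter only as higher, so these values are a description. AT5G48620 had 31, 36 and 30 counts against 12, 8 and 18, without overlap (1.11 ± 0.33, adjusted p = 0.0210). That call was lost without cstf64-2 replicate 2 (adjusted p = 0.0721), Col-0 (3) replicate 1 (0.0564) or replicate 2 (0.0726), and with DESeq2 (0.107). RPP8 itself had 18, 19 and 24 counts against 12, 7 and 7 and just missed the threshold (1.00 ± 0.36, adjusted p = 0.0515).

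**Figure D4:**
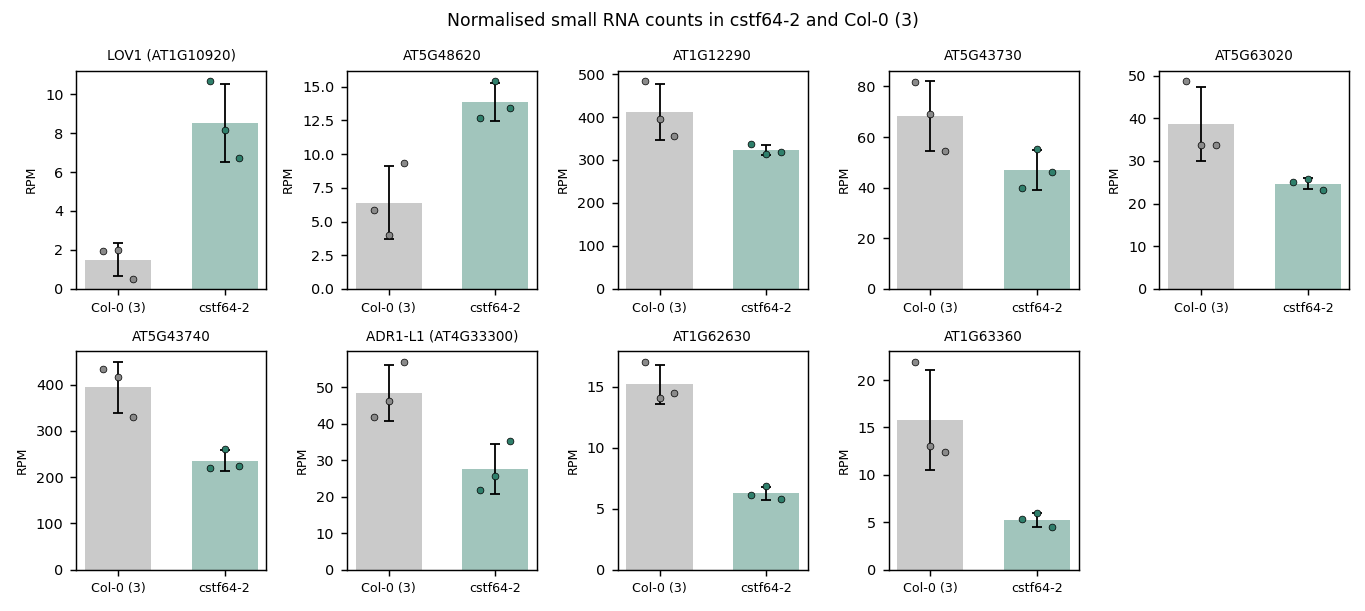
Normalised small RNA counts (RPM, vertical axes from 0) of 9 of the 10 members past adjusted p = 0.05 in cstf64-2 and Col-0 (3), 21 day-old plants; points are the 3 libraries of a group, bars the mean, error bars the SD. LOV1 and AT5G48620 lay above all wild-type libraries, and the other 7 lower, with overlap only for AT5G43730.

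Of 22 members tested in cstf64-2, 2 were called up, with LOV1 among them, where 13.6% of all genes were, and 3 down, where 3.30% were. DESeq2 called 1 up and 2 down. Of the 6 named targets 5 fell at adjusted p alone, and their median was -0.60 against 0.00 for all genes. The 11 tested genes with a predicted site had a median of -0.54 and the 9 tested RPP relatives 0.55. LOV1 is among these 9 and could enter only as higher, and some of the 9 share sequence. Under each scaling the 6 named targets were negative, whereas the count of positive RPP relatives went from 5 to 7 or 8 of 9 without TMM factors. With TMM factors 50.0% of all genes were positive. The named targets took 59.7% to 62.6% of member counts in cstf64-2 against 64.9% to 70.3% in Col-0 (3), without overlap.

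The study reads small RNAs of cstf64-2 beside the layout of genes, because convergent genes can be read through into each other. Within 400 bp of their 3' end, 17 of the 51 members have a convergent gene, and 9 overlap it. Of 10 such members tested, 2 were called up and 0 down, and of the 12 tested without a close convergent gene 0 were called up, where 13.6% of all genes were called up and 3.30% down. These counts are too small to read against that share, and LOV1 is 1 of the 2. The overlaps are short, LOV1 by 8 bp with AT1G10910 and AT5G48620 by 13 bp with AT5G48630. Their partners had few counts, 4, 5 and 5 against 4, 2 and 4 for AT1G10910 and 5, 11 and 9 against 2, 0 and 3 for AT5G48630, and were not tested. ADR1-L1 and its partner AT4G33290 overlap by 410 bp and went apart, the receptor down as given above and the partner with 273, 247 and 237 counts against 190, 110 and 93 (0.72 ± 0.19, adjusted p = 0.0126). Counts did not separate the strands, so small RNAs of the 2 genes within the overlap could not be assigned.

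**Figure D5:**
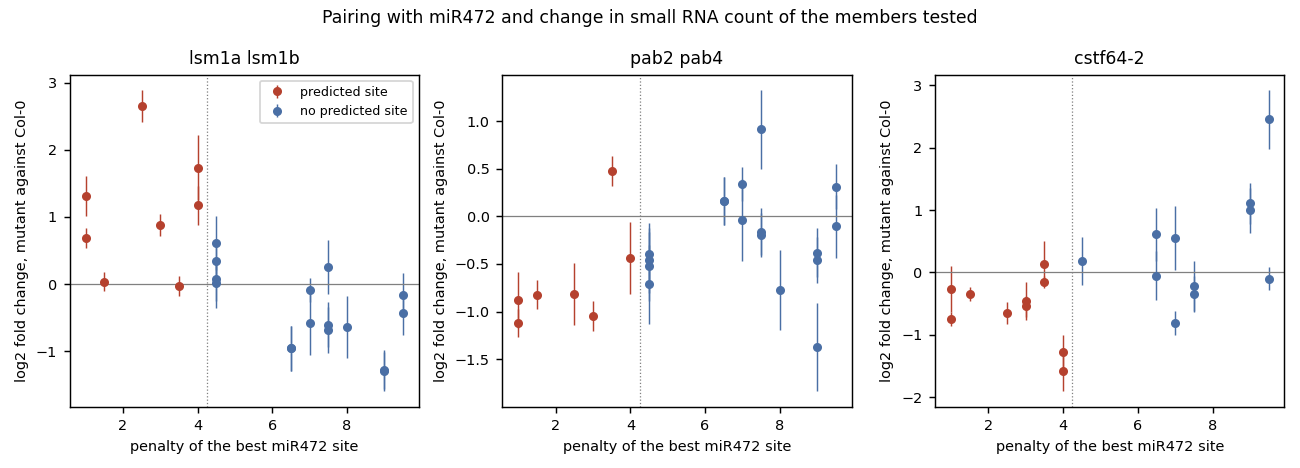
Log2 fold change (vertical axis, ± SE) of the members tested and shown by name against the penalty of its best miR472 site (horizontal axis, lower means better pairing) in lsm1a lsm1b, pab2 pab4 and cstf64-2; the dotted line marks the limit for a predicted site. Members with a predicted site lay mostly above 0 in lsm1a lsm1b and mostly below 0 in pab2 pab4 and cstf64-2, apart from AT5G47260 in pab2 pab4 and SUMM2 in cstf64-2.

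The partners of these receptors were read from a list of 16 genes, and the secondary siRNA machinery from a list of 11. These are small RNA counts over the genes and not mRNA levels, and only 2 to 4 of each list had enough counts to be tested. Among the partners, RKS1, the pseudokinase that works with ZAR1, was called up in upf3-1 (where 4.39% of all genes were; 25, 21 and 32 counts against 8, 7 and 6, log2 fold change 1.30), in rsr1-2 (0.895% of all genes; 28, 42 and 30 against 10, 6 and 12, 1.41) and in cstf64-2 (13.6% of all genes; 169, 163 and 194 against 38, 64 and 53, 1.53). DESeq2 gave RKS1 an adjusted p of 0.0835 in upf3-1 and none in rsr1-2, so it called neither. The upf3-1 call was also lost without Col-0 (1) replicate 3 (0.0516) or upf3-1 replicate 3 (0.0798), and the rsr1-2 call without rsr1-2 replicate 2 (0.0724). In cstf64-2 the chaperone HSP90.1 had 49, 56 and 49 counts against 0, 1 and 3, and EDS1, needed for signalling by TIR-type receptors, 19, 31 and 16 against 2, 2 and 3. Both, and RKS1 in upf3-1, were tested only through the mutant, with 0 of 3 control libraries at the limit, so they could enter only as higher. ZAR1 itself was tested in all 10 comparisons and passed in none (log2 fold change from -0.59 to 0.55).

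In the siRNA machinery, DCL1 rose in lsm1a lsm1b (2.20% of all genes were called up), with 32, 40 and 45 counts against 17, 12 and 6 (1.07 ± 0.35, adjusted p = 0.0446), a call lost with DESeq2 (0.0791) and in 4 of 6 refits without 1 library (up to 0.177, without Col-0 (1) replicate 3). With the Col-0 of set 2 it was at 0.70 (0.0927). DCL2 had 22, 12 and 15 counts in upf3-1 against 3, 2 and 1 (2.39 ± 0.58, adjusted p = 0.00273, or 1.05 and 0.0891 with the Col-0 of set 2), and it too was tested only through the mutant. DCL4, which makes the secondary siRNAs, fell in cstf64-2, with 13, 15 and 8 against 45, 21 and 22 (-1.51 ± 0.38, adjusted p = 0.00952), a call lost without Col-0 (3) replicate 1 (0.0512). Of the TIR-type receptors 18 were tested in cstf64-2, 4 were called up (13.6% of all genes) and 1 down (3.30%), while DESeq2 called 2 up and 1 down. At adjusted p alone 4 were up (18.7%) and 6 down (16.5%), and 6 of 18 were positive (50.0% of all genes), with a median of -0.17. AT5G38850 was the one down, with 790, 857 and 645 counts against 2579, 2204 and 1946 (-1.78 ± 0.12, adjusted p = 1.32e-06), and the same gene was up in lsm1a lsm1b. Those up were AT5G17880 (2.45), AT5G11250 (2.23), AT5G46470 (1.96) and AT5G44510 (1.68), all tested only through the mutant, with 0 of 3 control libraries at the limit. The last 2 were those DESeq2 did not call (adjusted p = 0.0569 and 0.114), and AT5G44510 was also lost without cstf64-2 replicate 2 (0.0782) or Col-0 (3) replicate 1 (0.0710) or 2 (0.0690).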

How the data were processed

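Small RNA libraries (NEB Next kit, HiSeq4000) were made from total plant RNA. Per the labels and the study's methods, the authors trimmed reads with cutadapt 1.9, kept those of at least 15 nucleotides, mapped them with Bowtie 1.0.0 to TAIR10 without mismatches, allowing at most 10 places, and counted them in Araport11 exons with HTSeq 0.6.0. The deposited values are raw counts. The counter's own lines (59.5% to 79.7% of each file) were left out. Each mutant was fitted with the Col-0 of its set by edgeR 4.0.16 (TMM factors, expression filter, quasi-likelihood test over all genes, Benjamini-Hochberg), tested first on simulated data, with the study's thresholds of 0.05 and 1. RPM are counts per 1000000 after TMM scaling within a set. DESeq2 1.42.0 and other scalings, filters, controls and left-out libraries were tried. Labels do not say that replicate libraries were grown separately (the paper calls those of set 2, and of lsm1a lsm1b, biological replicates), so p-values measure the spread between these libraries, which for the others may be technical. Coordinates and sequences are from RefSeq TAIR10.1. The genes described, their groupings and the comparison lists were chosen with earlier results of these data known. Members called in a mutant, the named targets in lsm1a lsm1b, the most abundant genes and called genes of the other lists are named by rule; members past adjusted p alone were added after their values were seen. Values of 1 member are not reported here on their own, though counts and medians include it.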

Additional observations from a re-analysis of the deposited data

How the results depend on the processing

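Scaling changed the most calls. With libraries scaled to sequenced reads or to total gene counts, without TMM factors, 9 or 10 members were called up and 0 down in lsm1a lsm1b, 3 up in ncb-4, 1 up and 0 down in upf1-5, 1 or 2 up in upf3-1, and 1 up and 0 down in pab2 pab4, and AT1G12290 in ncb-4 turned to 0.14 or 0.25. DESeq2 called 0 down in upf1-5, 1 down (0 with a prior on fold changes) in pab2 pab4 and 1 up in cstf64-2, and without the filter on low counts 1 was down in pab2 pab4. With the other 14 day-old Col-0 as control, 2 were down in ncb-4, 0 in upf1-5, 5 in ahg2-1 and 1 in pab2 pab4. That control also turned AT5G43740 in lsm1a lsm1b to -0.057, AT1G12290 in ncb-4 to 0.24, AT1G51480 and AT5G47260 in pab2 pab4 to 0.066 and -0.11, and AT5G43730 in rsr1-2 to 0.33. A site penalty of at most 3 left 9 predicted members. The causes of these changes were not tested, beyond what each setting itself alters.

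Leaving out 1 library at a time gave 3 to 4 members up and 2 to 4 down in lsm1a lsm1b (4 without Col-0 (1) replicate 3 or lsm1a lsm1b replicate 1), 0 to 4 down in ncb-4 (4 without Col-0 (1) replicate 3, 2 without ncb-4 replicate 3), 0 to 1 up and 0 to 1 down in upf1-5 (up without Col-0 (1) replicate 1), 0 to 1 up and 0 to 1 down in upf3-1 (both without Col-0 (1) replicate 1, down also without upf3-1 replicate 3), 1 to 3 down in pab2 pab4, and 1 to 3 up in cstf64-2 (1 without cstf64-2 replicate 2 or Col-0 (3) replicate 2). AT1G12290 in lsm1a lsm1b ranged from -0.037 to 0.085. Over all members past adjusted p alone, direction and adjusted p under 0.05 were both kept in 295 of 399 fits under other settings and in 146 of 234 with 1 library left out.

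Replicate numbers did not pair the samples: correlations between same-numbered deviations were between -0.132 and 0.274, and in no comparison were all over 0.1. With the replicate number as a block, 2 members instead of 3 were called down in pab2 pab4 (AT5G35450 at -1.38, adjusted p = 0.0522), and counts of members called were equal in the other 9 mutants. By adjusted p alone the block also moved AT5G48620 in upf3-1, AT1G51480 in pab2 pab4 and AT5G43730 in rsr1-2 past 0.05. Most members have few counts, and 22 of 51 could not be tested at this depth.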
